A study of Mus musculus with 2 samples.

Results

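Fibroadipogenic progenitors (FAPs) marked by Hsd11b1 and Mme were examined in regenerating mouse gastrocnemius muscle. They were the cells with Pdgfra detected, with no UMI (unique molecular identifier, the tag that counts each captured RNA molecule once) of Pecam1, Cdh5 or Ptprc, and with at least 2 of the 4 genes Hsd11b1, Mme, Bmper and Aldh1a2 detected. Cells with more than 1 of the progenitor genes Pi16, Dpp4, Sbsn and Efhd1, or with more than 2 of the tendon genes Tnmd, Chad, Kera, Scx and Cilp2, were left out. This rule selected 808 of 13432 cells, and 808 of the 3019 cells that passed its Pdgfra, Pecam1, Cdh5 and Ptprc conditions, here called FAP-gate cells. Of the 808, 378 came from the WT library and 430 from the library labelled GSDME-KO (KO library). The WT mice were male C57BL/6J, and the KO mice were male global Gsdme knockouts bred as littermates from heterozygotes, with the allele not given in the sources used here. Mice of both genotypes had received 50 µl of 10 µM cardiotoxin (CTX, a snake venom toxin from Naja pallida that destroys muscle fibers) in the gastrocnemius, and muscle was taken on day 14. Cells were captured in droplets with a 5′ kit, with 5 mice per genotype and 1 library per genotype, and whether the mice were pooled is not stated. With no replicate library, differences between the genotypes carry no test and no p-value. Levels are given as CPM, a gene's UMIs per 1000000 UMIs over all cells of the group together, and their 95% intervals, like those of ratios and shares, cover counting error only.

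FAPs are Pdgfra-expressing stromal cells that lie between muscle fibers, make much of the matrix of the tissue, support muscle stem cells after injury and can become fat cells or myofibroblasts. Hsd11b1 encodes the enzyme that turns inactive glucocorticoid into its active form inside the cell, and Mme encodes neprilysin, a surface protease that cuts small peptides. Bmper encodes a secreted modulator of BMP signaling, and Aldh1a2 encodes an enzyme that makes retinoic acid.

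The WT library held 44758518 UMIs in 6354 cells and the KO library 50930009 UMIs in 7078 cells. The Hsd11b1 Mme FAPs held 2911171 and 3685319 of these, with a median of 7590.5 and 8260.5 UMIs per cell, and made up 6.5% and 7.24% of the library UMIs. The libraries shared 4 cell barcodes, and no Hsd11b1 Mme FAP carried one of them. Gsdme, the targeted gene, had 225 UMIs (5.03 CPM) over all cells of the WT library and 237 (4.65 CPM) over all cells of the KO library, so its UMIs did not separate the libraries. Where the deleted part lies relative to the 5′ reads is not given in the sources used here, so this count checks neither label. In Hsd11b1 Mme FAPs Gsdme had 19 UMIs (6.53 CPM, 3.93 to 10.2) in the WT library and 6 (1.63 CPM, 0.597 to 3.54) in the KO library, and in the other FAP-gate cells 44 (5.59 CPM) and 55 (4.64 CPM).

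The selected cells carried genes of FAPs and few UMIs of other cell types. Pdgfra stood at 429 CPM in the WT library and 422 in the KO library, which the rule requires to be above 0, and Dcn, a matrix proteoglycan that the rule did not read, at 20399 and 17019. Of 13 other FAP identity genes compared with the other FAP-gate cells, 5 were higher and 7 lower in both libraries. Over all 9630 genes compared in this way, 30% were higher and 38.8% lower in both. Of 8 endothelial markers, Pecam1 and Cdh5 were at 0 by the rule and the other 6 were detected, and the list summed to 22.7 and 19.8 CPM, against 3594 and 3781 in all cells outside the FAP gate. The 10 immune markers summed to 210 and 126 CPM, with 8 detected in each library, Ptprc at 0 by the rule and S100a9 at 0, against 8147 and 9852 outside the gate. Cd74 held 445 of the 611 WT UMIs of this list, 391 of them in 2 cells, and 123 of the 463 KO UMIs. The 7 mural markers, all detected, summed to 126 CPM in both libraries, and the 6 muscle stem cell markers to 29.2 and 27.1, with Pax7, Myf5 and Cdh15 at 0 in the KO library. The 5 Schwann markers summed to 17.9 and 3.26 CPM, with Sox10 at 0 in the KO library. Adipoq, Plin1 and Cidec, genes of mature fat cells, were at 0 in both libraries, and the 5 fat cell markers held 1 UMI in each. Muscle fiber and red cell RNA behaved differently in these cells and in their neighbors. The 8 fiber markers summed to 129 and 146 CPM and the 4 hemoglobin genes to 41.2 and 32.3 in Hsd11b1 Mme FAPs, whereas in the other FAP-gate cells they summed to 117 and 519 and to 28.8 and 412.

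Cxcl14, Smoc2, Enpp2 and Ccl11, markers that the rule did not read, were all high in the selected cells. They were chosen with earlier results of these data known, so their high levels are a description and no test of the selection. Cxcl14, a chemokine of stromal and epithelial tissues, stood at 2799 CPM (2738 to 2860) in the WT library and 2149 (2102 to 2197) in the KO library, against 344 and 353 in the other FAP-gate cells. Smoc2, a matricellular calcium-binding protein, stood at 3330 and 2801 CPM, against 843 and 847. Both genes were thus well above the other FAP-gate cells in each library. Enpp2 encodes autotaxin, the secreted enzyme that makes lysophosphatidic acid, and stood at 367 and 273 CPM, against 111 and 119. Ccl11, the eosinophil chemoattractant eotaxin, stood at 1695 and 1463 CPM, against 452 and 618. After each cell was thinned to 3000 UMIs, a Cxcl14 UMI was found in 80.3% (WT) and 72.8% (KO) of the Hsd11b1 Mme FAPs (86.8% and 79.1% unthinned), in 26.9% and 29.2% of the other FAP-gate cells and in 4.32% and 3.59% of cells with a Ptprc UMI, whose median depths of 6261 and 6077.5 UMIs were lower.

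**Figure D1:**
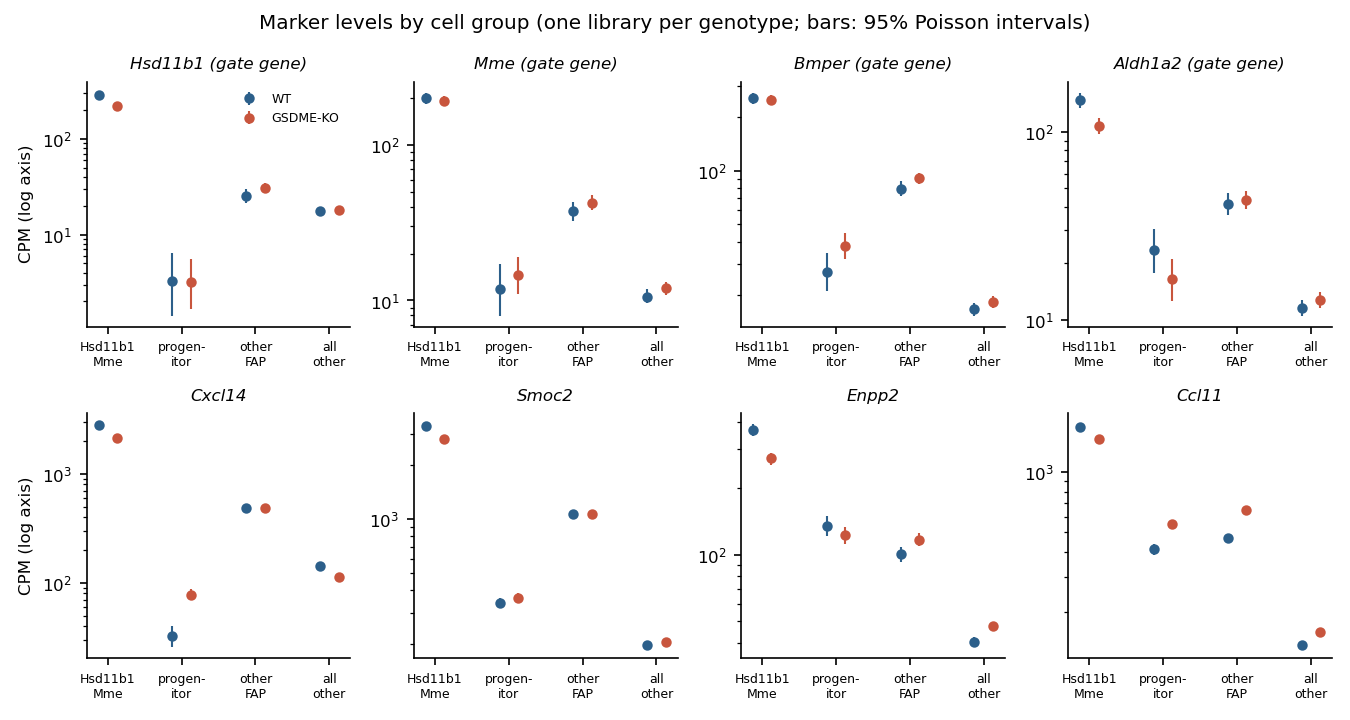
CPM on a log axis of 4 gate genes (top) and 4 further markers (bottom) in Hsd11b1 Mme FAPs, progenitor-gate cells, the remaining FAP-gate cells and all other cells, with 1 point per library (blue, WT, and red, GSDME-KO) and bars for 95% Poisson intervals. Hsd11b1 Mme FAPs are highest in all 8 panels, which the rule fixes for the top row. The markers of the bottom row were chosen with earlier results of these data known. Cxcl14 is at 2799 CPM in Hsd11b1 Mme FAPs and at 344 over the other FAP-gate cells of the WT library.

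The required genes themselves differed in level between the selected cells and the rest, as the rule fixes. Hsd11b1 stood at 284 and 223 CPM, against 18.6 and 22 in the other FAP-gate cells, and Mme at 201 and 194, against 29.7 and 33.8. Bmper stood at 257 and 250 CPM, against 63.3 and 74.1, and Aldh1a2 at 148 and 107, against 35.8 and 35.0. These 4 genes are a description of the rule and not a finding. Progenitor-gate cells, chosen by the mirrored rule (at least 2 of Pi16, Dpp4, Sbsn and Efhd1), numbered 251 and 364, and Cxcl14 stood at 32.4 and 77.9 CPM in them.

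Levels near the edge of the rule ran on from one side to the other. Of the cells that met the progenitor and tendon limits, 280 WT and 415 KO cells had 1 required gene and lay just outside the rule, while 187 and 224 had 2 and lay just inside. A further 118 and 140 cells had 3, and 73 and 66 had all 4. Cxcl14 went from 589 and 551 CPM with 1 required gene to 1708 and 1236 with 2, 3355 and 2288 with 3 and 4373 and 4794 with 4. Depth differed along the same scale, with medians of 7425.5 and 7599 UMIs per cell at 1 required gene, 7286 and 7984 at 2 and 8757 and 9123.5 at 4, and its part in these levels was not tested. Col4a1, a chain of basement membrane collagen, went from 1427 and 1089 CPM at 1 required gene to 3381 and 3029 at 4. G0s2, an inhibitor of fat breakdown, went from 34.2 and 32.2 CPM to 161 and 275. Thbs4, a matrix protein of tendon and of other FAPs, ran the other way, from 571 and 1009 CPM at 1 required gene to 231 and 405 at 4.

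**Figure D2:**
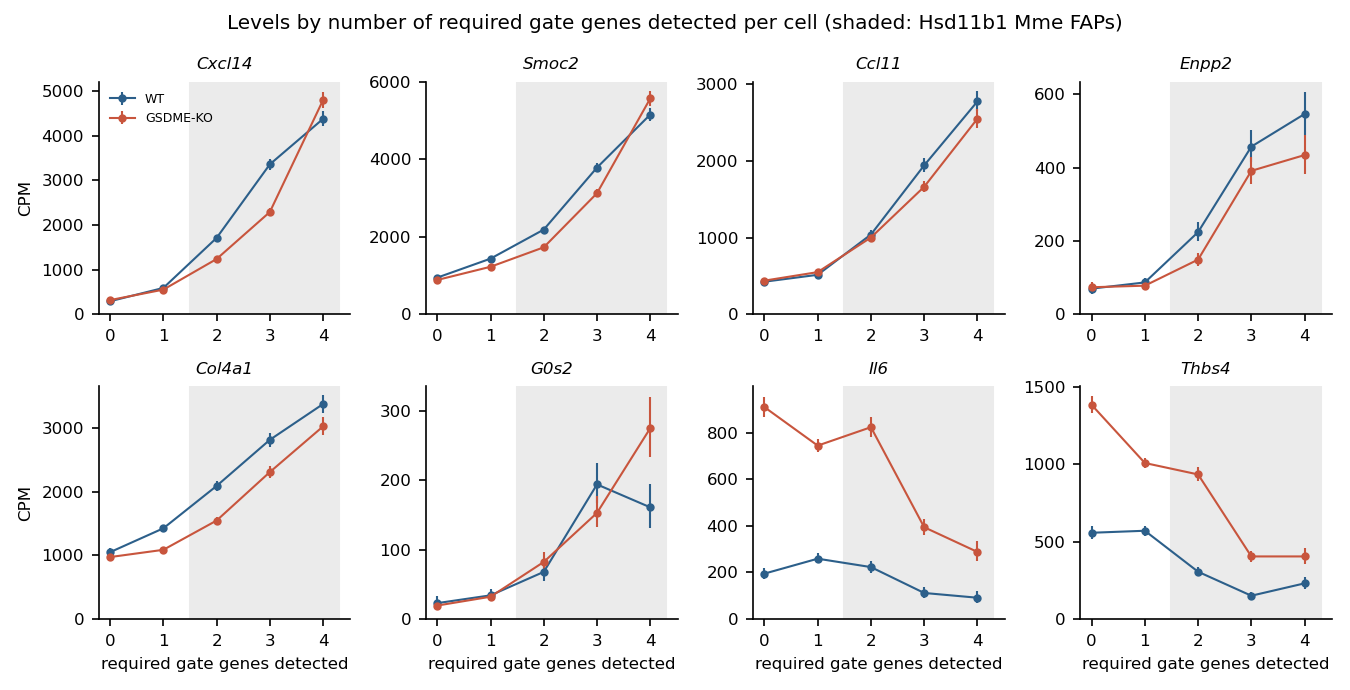
CPM (linear axes from 0) of 8 genes against the number of required gate genes detected per cell, with the selected cells shaded, 1 line per library and bars for 95% Poisson intervals. Cxcl14, Smoc2, Ccl11, Enpp2 and Col4a1 climb at each step inside the shaded range in both libraries, Thbs4 and Il6 are lower at 4 genes than at 2, and the KO line of Il6 lies above the WT line throughout, 288 against 91.6 CPM at 4 genes.

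Hsd11b1 Mme FAPs made up 29.4% (26.9 to 32.0) of the FAP-gate cells in the WT library and 24.8% (22.8 to 26.9) in the KO library, a difference of -4.58 percentage points (-7.81 to -1.38). As a share of all cells they were 5.95% and 6.08%, a difference of 0.126 points (-0.683 to 0.93). The rule reads whether a gene is detected, and the median depth of FAP-gate cells was 7959 UMIs in the WT library and 8562 in the KO library. Within ranges of depth the difference was not even. It was -8.82 points (-14.3 to -3.33) at 6000 to 10000 UMIs and 9.62 points (1.65 to 16.3) above 15000 UMIs, where 5 of 93 WT and 27 of 180 KO cells were selected, and the intervals of the other 3 ranges included 0. Progenitor-gate cells made up 19.5% and 21.0% of FAP-gate cells, a difference of 1.49 points (-1.43 to 4.35).

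Against the other FAP-gate cells, 92 of 9630 genes (0.955%) were at least 2-fold higher in Hsd11b1 Mme FAPs of both libraries and 202 (2.1%) at least 2-fold lower, and 30% were higher and 38.8% lower in both by any amount. The median log2 ratio over these genes was -0.03 in each library. Susd5 led the higher genes, with log2 ratios of 3.21 in the WT library and 4.07 in the KO library, from 41 and 47 UMIs. Sorl1, a sorting receptor of the endosome, stood at 55.6 and 39.9 CPM, against 8.01 and 6.16 in the other FAP-gate cells. Alpl, the tissue-nonspecific alkaline phosphatase, stood at 33.3 and 27.4 CPM, against 4.83 and 4.64. Each of these was more than 4-fold higher in both libraries. G0s2 stood at 128 and 136 CPM, against 21.0 and 29.0, and Spon1, the matrix protein spondin, at 155 and 126, against 36.2 and 24.9. Saa1, an acute-phase apolipoprotein, stood at 17.5 and 8.14 CPM, against 2.03 and 1.77, with 23.5% and 36.7% of its UMIs in 1 cell. Channels and receptors were also among the 15 genes with the highest ratios. Kcnk2, a background potassium channel, had log2 ratios of 1.95 and 2.03, Kcna2, a voltage-gated potassium channel, 2.18 and 2.19, and P2ry1, a receptor for extracellular ADP, 2.04 and 2.09. The remaining genes of the 15 were Cxcl14, Rasgrp2, Rgs17, Plxnc1, Sphkap and Cldn15.

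The 10 genes with the lowest ratios were Wif1, Krtdap, Fmod, Fam167a, Ptx4, Cmah, Dmkn, Wnt10b, Bmp3 and Col22a1. Fmod, a collagen-binding proteoglycan of tendon, stood at 7.56 and 37.2 CPM in Hsd11b1 Mme FAPs and at 1307 and 731 in the other FAP-gate cells, and its KO count is uneven, with 47 of 137 UMIs in 1 cell. Wif1, a secreted WNT inhibitor, had 1 UMI in each library, and Bmp3 had none. The 18 markers of other FAPs and tendon were lower in 16 cases in both libraries, 12 of them at least 2-fold, with median log2 ratios of -2.20 and -1.20. The rule places cells with several progenitor or tendon genes among the other FAP-gate cells. Lower levels of genes found in those cells are therefore partly fixed by the rule. The 5 tendon genes it limits summed to 14.1 and 28.5 CPM, against 1071 and 576. Igfbp5, an IGF-binding protein, stood at 296 and 438 CPM, against 1529 and 1509. The 2 exceptions were Apod, a lipid carrier (847 and 843 CPM, against 424 and 432), and Sfrp1, a secreted WNT modulator (144 and 212, against 76.5 and 149).

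Of 15 other genes of glucocorticoid activation and response that could be compared, 13 were higher in Hsd11b1 Mme FAPs of both libraries, with median log2 ratios of 0.36 and 0.27. The share of all genes higher in both was 30%. Of the 15, only H6pd was at least 2-fold higher in both. H6pd encodes the enzyme that supplies Hsd11b1 with its cofactor in the endoplasmic reticulum, and it stood at 57.4 (WT) and 37.7 (KO) CPM, against 18.7 in the other FAP-gate cells of each library. Nr3c1, the glucocorticoid receptor, was close to the other cells at 194 and 202 CPM, against 180 and 179. Among genes that glucocorticoids are known to induce, Tsc22d3 stood at 260 and 278 CPM, against 191 and 184, and Zbtb16 at 109 and 77.6, against 59.3 and 50.7. Per1, a clock gene of the same kind, was slightly lower at 34.4 and 29.8 CPM, against 37.7 and 33.4. Klf15 had 25 UMIs in the WT library (8.59 CPM, against 1.40 in the other cells) and 8 in the KO library (2.17 CPM, against 1.69).

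Of 13 retinoic acid genes compared, 4 were higher and 7 lower in both libraries, counts to be read against the 30% and 38.8% of all genes. Aldh1a1, which also makes retinoic acid, stood at 92.1 and 67.0 CPM, against 32.9 and 30.1, whereas Aldh1a3, another enzyme of that kind, stood at 19.2 and 16.0, against 46.1 and 51.9. Dhrs3, which turns retinal back to retinol, was lower at 22.7 and 20.9 CPM, against 44.5 and 34.0. Of 22 genes of the BMP and activin pathway, 8 were higher and 10 lower in both libraries, and of 14 WNT modulators 4 and 7, also not far from those shares. Bmp4, a BMP ligand, stood at 147 and 123 CPM, against 47.3 and 48.0, while the BMP antagonist Chrdl1 stood at 27.1 and 30.7, against 77.3 and 69.9. Among the WNT genes, Ror1, a receptor for Wnt5a, was 2-fold higher in both libraries (40.9 and 42.1 CPM, against 17.7 and 20.1), and Wnt2 was near absent with 1 UMI and 0 UMIs.

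Matrix genes differed in both directions. Of 20 collagen genes, 10 were higher and 9 lower in both libraries, to be read against 30% and 38.8% of all genes. The basement membrane collagens Col4a1 (2598 and 2033 CPM, against 951 and 859) and Col4a2 (933 and 779, against 375 and 361) were at least 2-fold higher in both libraries. Col15a1, found at the basement membrane edge, was too, at 1397 and 1190 CPM, against 467 and 450. Of 34 matrix glycoproteins and proteoglycans, 14 were higher and 15 lower in both libraries, not far from the 30% and 38.8% of all genes. Nid1, Nid2, Lama2, Lamb1, Lamc1 and Hspg2, components of basement membranes picked from that list after their values were seen, were among the 14, with Nid1 the closest to the other cells at log2 ratios of 0.32 and 0.05. Nid2, the linker nidogen, stood at 224 and 187 CPM, against 91.8 and 80.2, and the laminin chain gene Lama2, the chain of muscle basement membranes, at 882 and 616, against 363 and 366. Hspg2, the proteoglycan perlecan, stood at 1225 and 888 CPM, against 595 and 545. Col1a1, a chain of the main fibrillar collagen, was lower at 5341 and 7051 CPM, against 15578 and 11472, as was Col12a1, a collagen on the fibril surface, at 46.0 and 75.4, against 234 and 220. Tnc, a matrix protein of tendon and injured tissue, stood at 14.1 and 33.9 CPM, against 121 and 102. Fn1, fibronectin, stood at 956 and 1686 CPM, against 2743 and 3699. The rule places cells with several tendon genes among the other FAP-gate cells, and their part in these lower levels was not tested.

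Of 19 chemokine and cytokine genes, 13 were higher in both libraries, against 30% of all genes, with median log2 ratios of 0.78 and 0.53. Cxcl14 and Ccl11 are among the 13. Cxcl5, which recruits neutrophils, stood at 135 and 69.5 CPM, against 32.9 and 27.4, with 19.6% and 15.6% of its UMIs in 1 cell. Its thinned share was 7.02% and 6.48% of the cells, against 3.06% and 3.15% in the other FAP-gate cells and 0.341% and 0.179% in cells with a Ptprc UMI. Cxcl1, which also recruits neutrophils, stood at 2134 and 2607 CPM, against 990 and 1774, and Ccl7, which recruits monocytes, at 540 and 848, against 216 and 585. Of 16 listed receptor genes for interleukins, TNF and related cytokines, 9 were higher and 6 lower in both libraries. Over all genes these shares were 30% and 38.8%. Lifr, the receptor subunit for leukemia inhibitory factor, stood at 173 and 157 CPM, against 53.8 and 58.3, and Il1r1, the receptor for interleukin-1, at 185 in both libraries, against 99.4 and 111. Il1rl1, the receptor for interleukin-33, ran the other way at 8.59 and 21.2 CPM, against 52.4 and 37.2.

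Genes of fat cell formation and lipid handling were higher only in part. Of 15 adipogenic genes, 7 were higher and 3 lower in both libraries, with median log2 ratios of 0.15 and 0.11. The shares over all genes were 30% and 38.8%. Lpl, the lipase that frees fatty acids from lipoproteins, stood at 1158 and 1074 CPM, against 516 and 525, and Dgat2, an enzyme of triglyceride synthesis, at 12 and 7.60, against 5.72 and 3.80. Pparg, the regulator of fat cell formation, had 4 UMIs in each library, and Dlk1, an inhibitor of that process, was near the other cells at 82.1 and 106 CPM, against 79.9 and 93.7. Among nerve and vessel factors, Ntf3, a neurotrophin, stood at 38.5 and 38.3 CPM, against 12.2 and 16.9, and Pgf, a relative of VEGF, at 55.3 and 40.7, against 25.4 and 20.4.

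Interferon response genes and early response genes were higher in Hsd11b1 Mme FAPs in most cases, yet mostly by less than 2-fold. Among all genes, 30% were higher in both libraries. Of 27 interferon genes, 24 were higher in both libraries and 1 was at least 2-fold higher in both, with median log2 ratios of 0.43 and 0.52. That gene was Ifi203, a member of the nucleic acid sensor family, at 1427 and 1281 CPM, against 639 and 635. Ifi27l2a was the gene at least 2-fold lower in both, at 230 and 204 CPM, against 625 and 417. Of 28 early response and heat-shock genes, 23 were higher in both libraries, with medians of 0.48 and 0.43 and none beyond 2-fold in both. Egr1, an immediate-early transcription factor, stood at 2446 and 2828 CPM, against 1418 and 1788, and Nr4a2, an orphan nuclear receptor of the same class, was lower at 227 and 151, against 433 and 330.

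**Figure D3:**
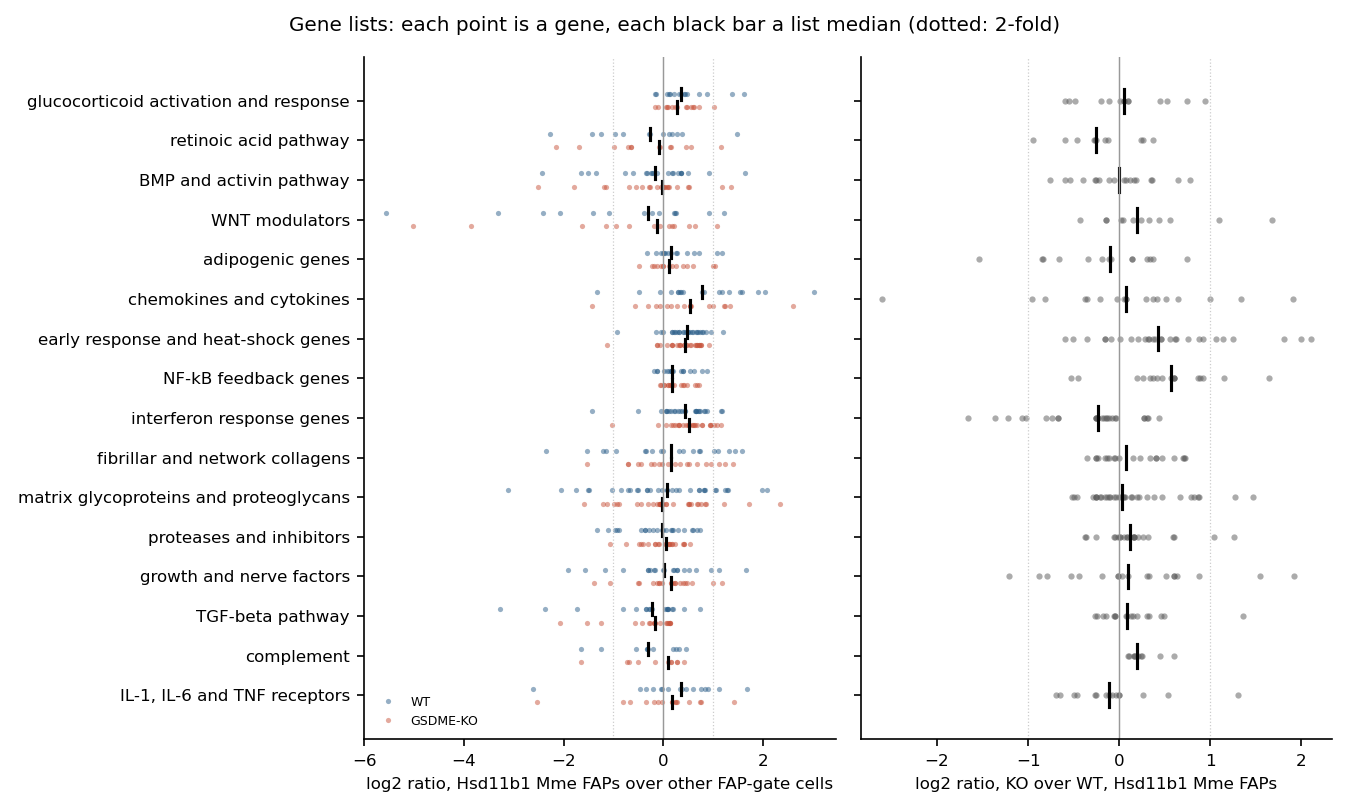
Log2 ratios of CPM, with each point a gene, each black bar a list median and dotted lines at 2-fold; the left panel gives Hsd11b1 Mme FAPs over the other FAP-gate cells in each library and the right panel KO over WT within Hsd11b1 Mme FAPs. Chemokine, interferon and early response medians lie right of 0 on the left (0.78, 0.43 and 0.48 in the WT library), and on the right NF-kB feedback genes have a median of 0.57 and interferon genes of -0.23.

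Between the libraries, 106 of 8458 genes (1.25%) were at least 2-fold higher in Hsd11b1 Mme FAPs of the KO library and 159 (1.88%) at least 2-fold lower. The counting interval of the ratio lay above 0 for 10.2% of the genes and below 0 for 18.1%, and the median log2 ratio was -0.05. The other FAP-gate cells of the same libraries had a median of -0.06, and their values are given beside those of the Hsd11b1 Mme FAPs because library and genotype cannot be told apart with 1 library each.

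Heat-shock genes and their cochaperones held 4 of the 12 highest ratios. These chaperones bind unfolded proteins and are made when cells are heated, dissociated or otherwise stressed. Hspa1a stood at 486 CPM (461 to 512) in the WT library and 2090 (2043 to 2137) in the KO library, a log2 ratio of 2.1, against 2.01 in the other FAP-gate cells. Hspa1b, at 657 and 2630 CPM, had a ratio of 2.0, against 2.18. These genes are near-identical copies whose reads may be split between them, and their sum was 1143 and 4720 CPM with a log2 ratio of 2.05 (1.99 to 2.1). Dnajb1, a partner that delivers substrates to Hsp70, stood at 554 and 1943 CPM and had a ratio of 1.81, against 1.85, and Dnaja4, of the same family, stood at 34.0 and 116, with 1.78, against 1.43. Hspd1, Hspe1 and Hspb1, named after their values were seen, had ratios of 1.28, 1.47 and 1.43. The genes were detected in many cells. In thinned cells Hspa1a was found in 47.5% of WT and 57.9% of KO Hsd11b1 Mme FAPs (64.3% and 69.3% unthinned), against 63.6% and 66.2% of cells with a Ptprc UMI, and no cell type here is known to lack this gene. Dissociation, capture and genotype cannot be told apart here.

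The promoters of these genes are shown because their members were higher together. The heat-shock element core, written here as GAA and TTC with any 2 bases between them and the same on both strands, was searched in the 250 bases before the start and was present in 6 of the 8 listed heat-shock genes with an entry in the RefSeq promoter table (75%; 10 genes listed), against 6.69% of 32851 promoters. It was present in Hspa1a, Hspa1b, Dnaja4, Hspd1, Hspe1 and Hspb1 and not in Dnajb1 or Hsph1. Dnaja4 was listed for its ratio between the libraries, and Hspd1, Hspe1 and Hspb1 after their values were seen. Because genes were chosen from these data, the 75% is no test of the motif. A match is a description of the letters in this window only. The sequences below are the 150 bases before each start in GRCm38.p6, 5′ to 3′ along the gene's strand, with the motif in capitals. Hspa1a lies on the minus strand at chr17:34972157-34972306, Hspa1b on the minus strand at chr17:34959239-34959388 and Hspb1 on the plus strand at chr5:135887769-135887918.
Hspa1a: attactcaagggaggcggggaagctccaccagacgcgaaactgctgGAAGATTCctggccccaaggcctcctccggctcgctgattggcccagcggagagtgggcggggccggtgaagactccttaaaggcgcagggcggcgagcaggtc
Hspa1b: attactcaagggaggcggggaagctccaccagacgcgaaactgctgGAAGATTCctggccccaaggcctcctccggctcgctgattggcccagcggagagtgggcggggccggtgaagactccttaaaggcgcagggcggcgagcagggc
Hspb1: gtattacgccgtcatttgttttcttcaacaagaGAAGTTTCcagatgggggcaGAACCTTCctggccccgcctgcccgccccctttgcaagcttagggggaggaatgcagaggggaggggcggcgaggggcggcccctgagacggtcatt
Hspa1a and Hspa1b carry the motif at the same place, 96 bases before the start, and Hspb1 carries it at 2 places.

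The early response and heat-shock list as a whole had a median log2 ratio of 0.42. Its median in the other FAP-gate cells was 0.34. Of its 28 genes, 6 were at least 2-fold higher in the KO library and none at least 2-fold lower, and 20 intervals lay above 0 and 6 below. Over all 8458 genes, 1.25% were at least 2-fold higher and 1.88% at least 2-fold lower. Of their intervals, 10.2% lay above 0 and 18.1% below. Zfp36, which speeds the decay of cytokine RNAs, stood at 813 and 1696 CPM, and Btg2, an antiproliferative gene, at 776 and 1712. The AP-1 subunits differed little, with log2 ratios of 0.37 for Fos, 0.33 for Jun and -0.09 for Fosb. Klf4, a stress-responsive transcription factor, was lower at 2725 and 1917 CPM, a ratio of -0.51, against -0.42 in the other FAP-gate cells. Of 17 NF-kB feedback genes, 14 intervals lay above 0 and 1 below, counts to be read against the same shares of all genes. The median of these feedback genes was 0.57, against 0.52 in the other cells. Zc3h12a, the RNase that degrades Il6 RNA, stood at 19.9 and 62.1 CPM, and Tnfaip3, an inhibitor of the pathway, at 10.6 and 23.6. Nfkbia, the inhibitor that holds NF-kB in the cytoplasm, differed by only 0.19, at 320 and 366 CPM.

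Il6, the interleukin-6 gene, stood at 160 CPM (146 to 175) in the WT library and 599 (574 to 624) in the KO library, a log2 ratio of 1.91 (1.76 to 2.05). In thinned cells it was found in 18.3% (14.4 to 22.7) of WT and 49.1% (44.1 to 54.1) of KO Hsd11b1 Mme FAPs (27.8% and 61.2% unthinned), against 5.57% and 11.4% of cells with a Ptprc UMI. The other FAP-gate cells had 166 and 571 CPM, a ratio of 1.78, so the Il6 level was alike in both sets of cells within each library. The highest cell held 4.3% and 3.35% of the Il6 UMIs. The NF-kB core, GGGA and TTCC with any 2 bases between them on either strand, was present in the Il6 promoter and in 1.21% of all 32851 promoters. It is shown in capitals, 34 bases before the start, in the window chr5:30012964-30013113 on the plus strand.
Il6: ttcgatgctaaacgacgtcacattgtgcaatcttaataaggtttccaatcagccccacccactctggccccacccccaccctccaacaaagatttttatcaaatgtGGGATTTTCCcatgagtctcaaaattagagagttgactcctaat

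Chemokines differed in both directions, with a list median of 0.07. Cxcl10, which attracts T cells and is induced by interferon, stood at 240 and 609 CPM, with a ratio of 1.34 (1.22 to 1.47), against 0.77 in the other FAP-gate cells. In thinned cells it was found in 16.6% and 30.7% (22.5% and 37.7% unthinned), against 11.1% and 12.4% of cells with a Ptprc UMI. Cxcl9, of the same group, stood at 157 and 315 CPM, with a ratio of 1.0, against 0.14. Cxcl5 was lower in the KO library, with a ratio of -0.96 (-1.19 to -0.73), against -0.27. The marker chemokines Cxcl14 and Ccl11 had ratios of -0.38 and -0.21, and Smoc2 and Enpp2 of -0.25 and -0.43, but these were smaller or opposite in sign when the rule was read on thinned cells. In the order Cxcl14, Ccl11, Smoc2 and Enpp2 they were then -0.08, 0.05, 0.21 and -0.15. Cxcl13, which recruits B cells, had 43 UMIs in the WT library, all in 1 cell. Ptx3, a secreted pattern recognition protein, stood at 169 and 735 CPM, a ratio of 2.12 (1.98 to 2.26), against 1.36.

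Interferon response genes were lower in the KO library in part. Of 27 genes, 5 were at least 2-fold lower and none at least 2-fold higher, and 15 intervals lay below 0 and 1 above. Among all genes, 1.88% were at least 2-fold lower and 1.25% at least 2-fold higher. For 18.1% of all genes the interval lay below 0 and for 10.2% above. The median log2 ratio of the interferon list was -0.23, against -0.40 in the other FAP-gate cells. Among cells with at least 3 required genes the median was 0.00. Isg15, a ubiquitin-like protein, stood at 290 CPM (271 to 310) in the WT library and 91.4 (81.9 to 102) in the KO library, a ratio of -1.66 (-1.85 to -1.48), against -1.74. In thinned cells it was found in 35.4% and 17.7% (50.5% and 30.9% unthinned), against 26.9% and 18.7% of cells with a Ptprc UMI. Rsad2, the antiviral enzyme viperin, stood at 32.6 and 12.8 CPM, and Igtp, an interferon-inducible GTPase, at 102 and 43.7. Ifit3 and Ifit3b, paralogs whose reads may be split, had ratios of -1.07 and -1.02. Ifit1 was lower by less, at 525 and 315 CPM, a ratio of -0.74, and its thinned shares of 32.3% and 29.2% were close (39.2% and 37.4% unthinned). Gbp2, a GTPase induced mainly by interferon-γ, ran the other way at 133 and 181 CPM, a ratio of 0.44 (0.26 to 0.63).

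The core of the interferon-stimulated response element, GAAA repeated after any 2 bases and read on both strands with overlaps counted, was present in the 250 bases before the start of 14 of 23 interferon genes in the RefSeq table (60.9%; 30 listed), against 2.98% of all promoters. The list was drawn up as interferon response genes, so the 60.9% is no test of the motif or of the difference between libraries. Isg15 lies on the minus strand with its window at chr4:156200819-156200968, and Ifit1 on the plus strand at chr19:34640739-34640888. The windows are 150 bases long in GRCm38.p6, with the motif of either strand in capitals.
Isg15: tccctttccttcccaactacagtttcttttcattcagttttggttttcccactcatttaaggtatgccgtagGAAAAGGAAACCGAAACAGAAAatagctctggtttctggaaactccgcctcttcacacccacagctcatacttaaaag
Ifit1: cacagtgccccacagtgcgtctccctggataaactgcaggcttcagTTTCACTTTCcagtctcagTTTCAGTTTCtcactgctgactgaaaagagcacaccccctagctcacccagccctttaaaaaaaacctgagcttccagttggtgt
Isg15 carries 3 overlapping matches and Ifit1 carries 2 that do not overlap. The list genes with no match included Ifit2, Irf7 and Oasl2.

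**Figure D4:**
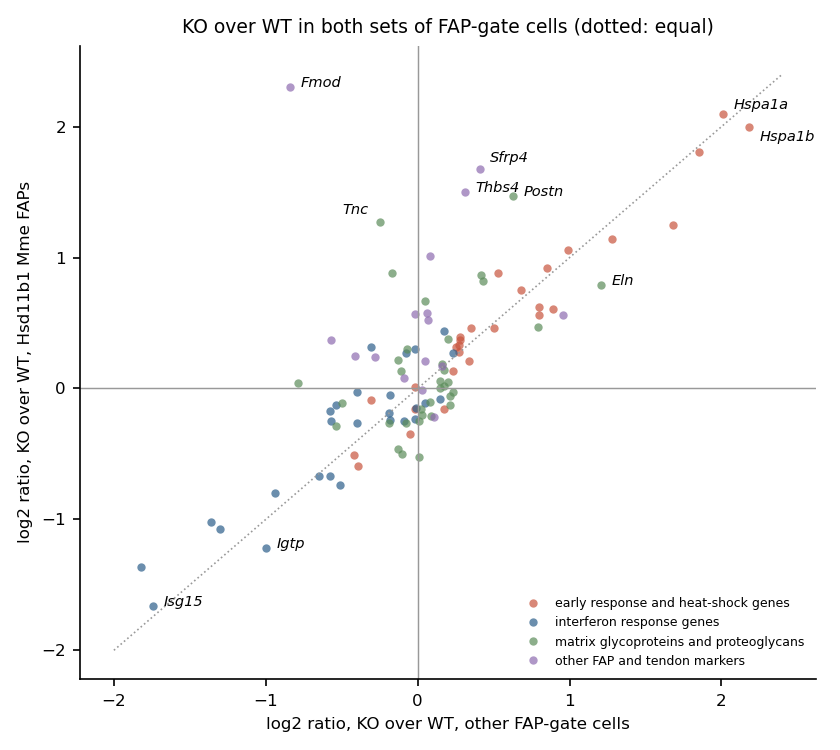
Log2 ratios of KO over WT in the other FAP-gate cells (x axis) and in Hsd11b1 Mme FAPs (y axis), with each point a gene of 4 lists and a dotted line where the ratios are equal. Heat-shock and interferon genes lie near the line (Hspa1a at 2.01 and 2.1, Isg15 at -1.74 and -1.66), while Fmod, Sfrp4, Thbs4, Postn and Tnc lie above it, Fmod at -0.84 and 2.30.

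Markers of other FAPs and of tendon were higher in the KO library in part. Of 16 such markers, 9 intervals lay above 0 and none below, and 4 were at least 2-fold higher. Those counts are to be read against 10.2%, 18.1% and 1.25% of all genes. The median log2 ratio of the markers was 0.45, against 0.06 in the other FAP-gate cells. Thbs4 stood at 241 and 680 CPM, a ratio of 1.5 (1.37 to 1.62), against 0.31, and was higher in the KO library at each number of required genes. Sfrp4, a secreted WNT modulator, stood at 97.2 and 312 CPM, a ratio of 1.68, with 33.9% and 14.9% of its UMIs in 1 cell, and its ratio ran from 0.91 with the rule read on thinned cells to 2.58 with at least 3 required genes. Postn, a matrix protein of injured tissue, stood at 312 and 861 CPM, a ratio of 1.47 (1.36 to 1.57), against 0.63. Timp1, an inhibitor of matrix proteases, stood at 97.9 and 235 CPM, a ratio of 1.26, against 0.23, and Tnc had a ratio of 1.27, against -0.25. Aspn and Cilp, matrix genes named after their values were seen, had ratios of 1.43 and 1.5, against 0.83 and 1.05. The progenitor and tendon genes that the rule limits were higher beside these values. They summed to 172 (WT) and 221 (KO) CPM and to 14.1 and 28.5 in Hsd11b1 Mme FAPs, and their part in the result was not tested. The 20 collagen genes had a median ratio of 0.08, with 9 intervals above 0 and 7 below, against 10.2% and 18.1% of all genes. Among the collagens, Col1a1 had a ratio of 0.40, Col3a1 of 0.47, Col5a3 of -0.26 and Col4a1 of -0.35. In the other FAP-gate cells these ratios were -0.44, 0.28, -0.18 and -0.15.

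Adipogenic genes had a median log2 ratio of -0.10 between the libraries, against -0.04 in the other FAP-gate cells. Of 14 compared, 4 intervals lay above 0 and 5 below, and 1 gene was at least 2-fold lower. The shares over all genes were 10.2%, 18.1% and 1.88%. Cebpa, a regulator of fat cell formation, had 123 and 87 UMIs, a ratio of -0.84, while Cebpb and Cebpd differed in opposite directions. Cebpb stood at 822 CPM in the WT library and 283 in the KO library, a log2 ratio of -1.54 (-1.64 to -1.43), and Cebpd at 1365 and 2280, a ratio of 0.74 (0.69 to 0.80). Both are transcription factors that act early in fat cell formation and in acute inflammation. The other FAP-gate cells gave -1.56 and 0.98, so neither difference was limited to the Hsd11b1 Mme FAPs. Fasn, fatty acid synthase, stood at 60.8 and 33.6 CPM, a ratio of -0.85, and Sqle, an enzyme of cholesterol synthesis, at 55.0 and 16.8, a ratio of -1.71. The glucocorticoid list had a median of 0.05, with Sgk1, a kinase that glucocorticoids induce, at 791 and 539 CPM (-0.55) and H6pd at -0.60 (-0.94 to -0.27). Fkbp5, another induced gene, was alike at 51.9 and 53.7 CPM, as was Tsc22d3 with a ratio of 0.10 (-0.04 to 0.24).

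Growth factors included some of the wider differences. Vegfa, the main angiogenic factor, stood at 294 CPM (274 to 314) and 127 (115 to 139), a log2 ratio of -1.21 (-1.38 to -1.05), against -0.59 in the other FAP-gate cells. Hbegf, an EGF receptor ligand, stood at 146 and 36.9 CPM, a ratio of -1.98 (-2.27 to -1.70), against -0.94. The ratio was -2.98 with at least 3 required genes and -2.70 with the rule read on thinned cells. In thinned cells Hbegf was found in 24.4% and 7.98% (36.8% and 14.2% unthinned), both below the 28.4% and 26.8% of cells with a Ptprc UMI, so these shares are given without a reading. Hgf, which activates muscle stem cells, had 15 and 72 UMIs (5.15 and 19.5 CPM), a ratio of 1.92 (1.11 to 2.83), against 1.19. Bdnf, a neurotrophin, stood at 12.7 and 36.9 CPM, a ratio of 1.54, against 1.63, with 24.3% of its KO UMIs in 1 cell. Igf1, a growth factor for muscle, stood at 891 and 1347 CPM, a ratio of 0.60 (0.53 to 0.66), against 0.42.

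The ratios of the MHC class II genes among the 12 lowest rested on few cells. Cd74, the invariant chain, stood at 153 and 33.4 CPM, with a ratio of -2.20, but 2 WT cells held 391 of its 445 UMIs. Without these cells Cd74 stood at 18.7 and 33.4 CPM and its ratio was 0.83 (0.36 to 1.32). H2-Aa, H2-Eb1 and H2-Ab1, which form the antigen-presenting molecules, went from -1.98, -2.21 and -1.68 to 0.83, 0.39 and 0.60. The immune markers summed to 210 and 126 CPM, but Cd74 is one of them. It held 445 of their 611 WT UMIs and 123 of their 463 KO UMIs, so this sum is not separate from the 2 cells. The 10 highest cells held 90.6% of the WT Cd74 UMIs, against 34.6% for Il6 and 30.6% for Isg15.

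**Figure D5:**
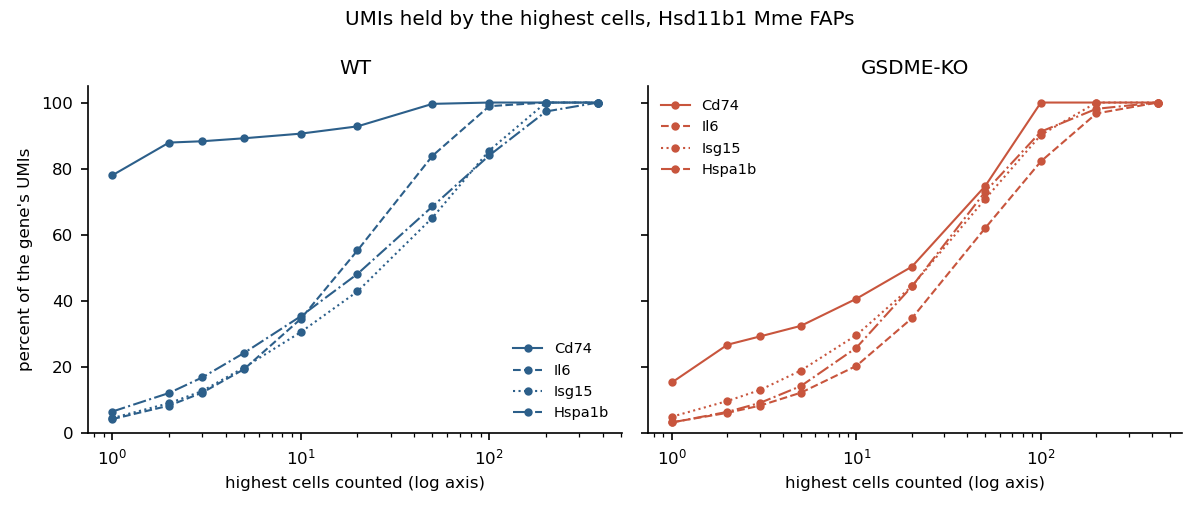
Percent of a gene's UMIs held by its highest cells (y axis) against the number of cells counted (x axis, log) in Hsd11b1 Mme FAPs of the WT and the GSDME-KO library. Cd74 in the WT library starts at 78% with 1 cell, while Il6, Isg15 and Hspa1b start below 10% in both libraries.

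Some of the widest ratios were in genes whose reads may be shared with copies or whose difference was just as wide elsewhere. Agpat4, an enzyme of phospholipid synthesis, had 19 and 205 UMIs (6.53 and 55.6 CPM), a log2 ratio of 3.09 (2.41 to 3.85), against 3.0 in the other FAP-gate cells. Tpm3, a tropomyosin, stood at 145 and 599 CPM and its near-identical copy Tpm3-rs7 at 201 and 3.53, with ratios of 2.05 and -5.83, while their sum was 345 and 603 with a ratio of 0.80 (0.70 to 0.91). Lars2, the mitochondrial leucyl-tRNA synthetase, stood at 3885 and 1105 CPM, a ratio of -1.81, against -1.57. Rrad, a small GTPase, had a ratio of 1.63 that turned to -0.54 when the rule was read on thinned cells, and 24.3% of its KO UMIs lay in 1 cell. Gm21860, which may share reads with copies, had a ratio of 1.53, and Ier5l and Tsr1 of -1.57 and -1.62.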

How the data were processed

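The deposited table holds 19169 genes and 13432 cells of both libraries. Per the labels and methods, the authors used Cell Ranger (2.1.1 in the submitters' processing notes, a later version in the methods) with mm10, then Seurat, DoubletFinder against doublets, removal of cells over 10% mitochondrial UMIs and Harmony. The authors' values are natural log values, ln(UMIs of the gene per 10000 UMIs of the cell + 1), deposited with 5 significant digits. The methods state more cells than the table holds, and it lists 0 mitochondrial genes, so that filter was not rechecked. UMIs were recovered from the value of 1 UMI in each cell, and the largest distance from a whole number was 0.256 over 29528482 values above 0. No doublet caller was run here.

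Cells were selected on recovered UMIs, without clustering. Levels have exact Poisson intervals, shares exact binomial (Clopper-Pearson) ones, differences of shares Newcombe ones, and ratios the exact binomial interval of one library's share of the UMIs, all at 95%. A gene entered a ratio with at least 50 UMIs, and past 2-fold was the limit counted. The floor for a count of 0 was 3 UMIs per library, 1.03 CPM (WT) and 0.814 CPM (KO) in the selected cells. Named genes were those of 33 lists (Mx1 was absent from the table), the 15 highest and 10 lowest against the other FAP-gate cells, and the 12 highest and 12 lowest between libraries with at least 200 UMIs. Hspd1, Hspe1, Hspb1, Cilp and Aspn were added after their values were seen. The members and lists were chosen with earlier results of these data known. On simulated counts of the comparison between libraries (8457 genes, 200 changed 4-fold), 100% of changed and 0.157% of unchanged genes passed 2-fold, and 95.6% of intervals held the true ratio. The simulated counts were Poisson draws from the summed WT profile, without spread between cells, mice or libraries. They check the calculation only and not how the calls or intervals hold in real cells. Promoters came from RefSeq (GRCm38.p6). Python 3.11.15, numpy 2.4.6, scipy 1.17.1 and matplotlib 3.10.9 were used.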

Additional observations from a re-analysis of the deposited data

Results flagged for a closer look

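Fmod and Bmp5 had ratios of opposite sign between the libraries in Hsd11b1 Mme FAPs and in the other FAP-gate cells, and the difference between these ratios was not tested. Fmod, a collagen-binding proteoglycan, had a log2 ratio (KO to WT) of 2.30 in Hsd11b1 Mme FAPs and of -0.84 in the other FAP-gate cells. Of its 137 UMIs in the KO cells, 34.3% lay in 1 cell, and without the highest cell of each library the ratio was 1.83. Bmp5, a BMP ligand, had a log2 ratio of 0.78 in Hsd11b1 Mme FAPs, with 64 and 139 UMIs (22.0 and 37.7 CPM), and of -0.52 in the other FAP-gate cells.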

How the results depend on the processing

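No paired analysis was possible because there was 1 library per genotype, and for the same reason no replicate could be left out. Of 449 recomputed values, 363 stayed within the interval of the reported value (for counts, within 1.5 times), 75 did not and 11 turned a ratio past 2-fold to the other sign. Counting every size, 32 values had the opposite sign, 13 of genes and 19 of list medians. The counts of genes at least 2-fold higher and lower in the KO library were 241 and 336 with at least 20 UMIs, 39 and 53 with at least 200 UMIs and 428 and 753 with no filter, against 106 and 159. With the rule read on cells thinned to 3000 UMIs, Cd74, H2-Aa, H2-Ab1, H2-Eb1 and Rrad had log2 ratios of 0.64, 1.59, 0.29, 0.34 and -0.54. H2-Aa was at 0.64 with at least 3 required genes and at 0.51 without its highest cell in each library. Without the cells with at least 20 Cd74 UMIs, Cd74, H2-Eb1, H2-Aa and H2-Ab1 were at 0.83, 0.39, 0.83 and 0.60. The last 2 settings were chosen after seeing the data. Apart from the cells left out, the cause of these differences was not tested. The share of Hsd11b1 Mme FAPs among FAP-gate cells differed by -2.97 points (-5.47 to -0.522) with at least 3 required genes and by -3.78 points (-7.49 to -0.112) on thinned cells. At this depth, genes with few UMIs have wide intervals, and no interval here covers the spread between mice.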

Other observations

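Some genes varied from cell to cell among the Hsd11b1 Mme FAPs far more than counting error gives. The variance over the mean of UMIs per cell was 25.7 (WT) and 23.3 (KO) for Gsn, an actin-severing protein, 23.0 and 28.8 for Fos and 14.8 and 17.5 for Eln, elastin, against a median of 1.1 and 1.09 over 3751 genes. Apod was uneven in the WT library, at 61.0 against 12.3 in the KO library. Each cell was thinned to 3000 UMIs before these values were taken, and shallower cells were left out. Spread in depth between cells is therefore not part of them.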
